A study of Mus musculus with 8 samples.

Results

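This account covers 10 genes of tissue remodelling in the pregnant mouse uterus: the serine protease genes Htra1 and Htra3, the matrix metalloprotease genes Mmp2, Mmp9, Mmp11 and Mmp14, and the protease inhibitor genes Timp1, Timp2, Timp3 and A2m. They were taken by symbol, through Ensembl ID and the GENCODE mouse M21 annotation, from 49585 genes in the deposited count table. RNA came from the entire uterus, fetal tissue included, of 8-week-old Foxp3DTR females at day 8 of pregnancy (E8) after mating with BALB/c males, an allogeneic cross. All females carried the diphtheria toxin receptor at Foxp3, the gene of regulatory T cells, so the toxin could kill these cells. The group labelled DT (replicates 1, 3, 4 and 5) received 1 µg of diphtheria toxin on days E1, E3, E5 and E7, which by the labels removed 85% of regulatory T cells. The group labelled PBS (replicates 1, 2, 4 and 6) received PBS on the same days. The libraries are named below by label and replicate number, DT1 to DT5 and PBS1 to PBS6. The labels do not say whether each library is 1 female, so p-values measure only the spread between these libraries.

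After implantation the uterine stroma turns into decidua, and the matrix around it is cut and rebuilt while trophoblast cells invade. Matrix metalloproteases are zinc enzymes that cut collagens, laminins and other matrix proteins, and are made as inactive precursors. Tissue inhibitors of metalloproteases (TIMPs) block them by filling the active site, and alpha-2-macroglobulin traps proteases of several classes. HtrA1 and HtrA3 are secreted serine proteases known from decidua and placenta, where they cut matrix proteins and dampen TGF-beta signalling.

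Total counts ranged from 94794512 to 109847604 per library. Each of the 10 members had at least 691 counts in every library and all 10 passed the filter on low counts, so counting error was small beside the spread between libraries. Foxp3 measured 5.12, 5.10, 5.72 and 5.69 CPM (read counts scaled to library size) in DT1, DT3, DT4 and DT5, against 4.89, 4.36, 5.44 and 4.86 CPM in PBS1, PBS2, PBS4 and PBS6. Its log2 fold change was 0.15 ± 0.10 (SE; edgeR adjusted p = 0.595), so the labels are not checked by it, and 18.9% of its windows of 75 bases are shared with other genes. The summed CPM of 10 T cell markers was 16.7 to 20.1 in libraries labelled DT and 5.60 to 8.90 in libraries labelled PBS. Each title also carries a suffix, S1 for PBS1 and PBS2, S2 for PBS4 and PBS6, S3 for DT1 and DT3, and S4 for DT4 and DT5. What the suffix means is not given in the sources used here, and because it changes with the group, the suffix and the treatment cannot be told apart.

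Libraries within a group differed widely in RNA of conceptus markers. By such markers the amount of conceptus tissue and its stage cannot be told apart. A conceptus score was computed as the mean standardised log2 CPM of 21 trophoblast, yolk sac and embryo markers that passed the filter. It was -0.96, -0.06, -0.46 and -0.16 in DT1, DT3, DT4 and DT5, against 0.95, 1.599, -0.70 and -0.21 in PBS1, PBS2, PBS4 and PBS6. PBS1 and PBS2 stood apart at the high end and DT1 was lowest. PBS1 and PBS2 are also the libraries of title suffix S1, so within the PBS label the score and the suffix cannot be told apart. The decidual stroma list was also lowest in DT1, with a summed 3953 CPM against 8580 to 10828 CPM in the other libraries labelled DT and 7641 to 13929 CPM in libraries labelled PBS. Estimates that move by over 1.5 times without these 3 libraries are given with and without them, in the text or under the dependence on processing.

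The members covered a wide range of levels. Per kilobase of merged exons and over all 8 libraries, A2m averaged 1857 CPM per kb, Htra1 157, Htra3 102, Mmp2 75.1, Timp2 72.6, Mmp14 43.4, Timp3 40.2, Timp1 35.3, Mmp9 10.0 and Mmp11 4.07 CPM per kb. A2m lay above Htra1 in 8 of 8 libraries, Timp2 above Mmp14 in 8 of 8 and Timp1 above Mmp9 in 8 of 8, although the ranges of A2m and Htra1 overlapped. The other neighbours in this order overlapped between libraries, for example Mmp2 and Timp2, where Mmp2 was higher in 4 of 8. A2m was among the most abundant transcripts of the tissue, ranking 3 to 14 by count in libraries labelled DT and 1 to 4 in libraries labelled PBS.

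Between the treatment groups, 0 of the 10 members passed the test. Their median log2 fold change, DT minus PBS, was 0.09, against 0.01 over all genes tested, and 5 were positive and 5 negative. Over all 22693 genes tested, 0.326% were called in either direction, 0.322% higher and 0.00441% lower (edgeR quasi-likelihood, adjusted p under 0.05). DESeq2 and limma voom also called 0 of the 10, and at an unadjusted p under 0.05 edgeR had 4, namely Mmp11 and Mmp14 higher and Htra1 and Htra3 lower, against 8.7% of all genes (4.72% higher and 3.98% lower). The groups overlapped for all 10 members, whereas 5.06% of all genes had no overlap in either direction. In whole tissue, fewer cells of a type and less RNA per cell cannot be told apart.

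**Figure D1:**
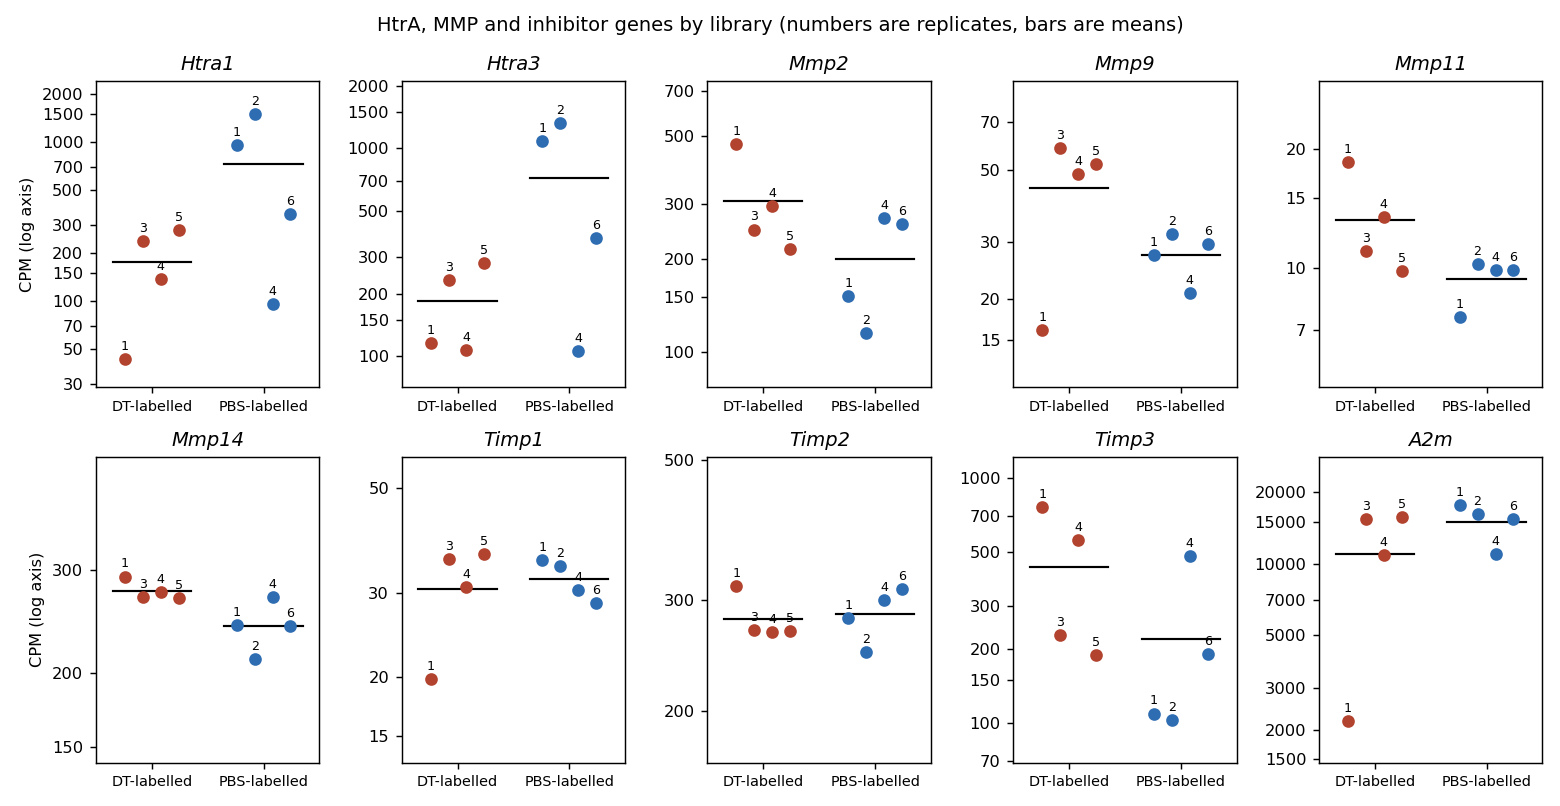
CPM of each member on log axes, with 1 point per library labelled by its replicate number and a bar at the group mean, DT-labelled left and PBS-labelled right (n = 4 each). The groups overlap in every panel; Htra1 and Htra3 spread most in the PBS-labelled group, and DT1 is lowest for Htra1, Mmp9, Timp1 and A2m.

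The HtrA genes had the largest negative estimates and the widest spread. Htra1 (ENSMUSG00000006205, chromosome 7, 130936111 to 130985660, plus strand, GRCm38) measured 43.3, 240.0, 139 and 280.1 CPM in DT1, DT3, DT4 and DT5, against 955, 1508, 95.3 and 350.5 CPM in PBS1, PBS2, PBS4 and PBS6. The high values were PBS1 and PBS2, and PBS4 lay below 3 of the 4 libraries labelled DT. Htra1 averaged 176 ± 106 CPM under the DT label and 727 ± 633 CPM under the PBS label (SD, n = 4 each). On the log2 scale this gave -2.05 ± 0.85 (SE), DT minus PBS, with a 95% interval from -3.99 to -0.11, and did not pass (edgeR adjusted p = 0.565). Htra3 (ENSMUSG00000029096, chromosome 5, 35652023 to 35679782, minus strand), first described in mouse as a pregnancy-related serine protease, measured 116, 233, 107 and 280.1 CPM in libraries labelled DT, against 1086, 1318, 106 and 369 CPM in libraries labelled PBS, in the same order of replicates. Its log2 fold change was -1.97 ± 0.72 (edgeR adjusted p = 0.553). Within the PBS-labelled group alone the highest library exceeded the lowest 15.8-fold for Htra1 and 12.4-fold for Htra3. Without DT1, PBS1 and PBS2, the log2 fold changes were -0.022 for Htra1 and -0.20 for Htra3 (edgeR adjusted p = 0.998 and 0.988).

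Because Htra1 and Htra3 varied together over the libraries and opposite to Timp3, the RefSeq promoter windows of these 3 genes (GRCm38.p6, 250 bases before to 50 bases after the annotated start, 5′ to 3′ on the gene's strand) are shown. Capitals mark matches on either strand to GGGCGG, the GC box that Sp1 binds, or AGGAAG, a core of ETS factor sites. Htra1 is at chr7:130935953-130936252, Htra3 at chr5:35679731-35680030 and Timp3 at chr10:86300162-86300461.
Htra1: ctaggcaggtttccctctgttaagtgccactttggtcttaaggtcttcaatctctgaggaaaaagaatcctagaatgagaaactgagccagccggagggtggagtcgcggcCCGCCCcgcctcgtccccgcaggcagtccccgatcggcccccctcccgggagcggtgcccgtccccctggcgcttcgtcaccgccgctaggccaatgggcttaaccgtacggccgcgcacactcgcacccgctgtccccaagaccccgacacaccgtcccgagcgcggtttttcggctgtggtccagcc
Htra3: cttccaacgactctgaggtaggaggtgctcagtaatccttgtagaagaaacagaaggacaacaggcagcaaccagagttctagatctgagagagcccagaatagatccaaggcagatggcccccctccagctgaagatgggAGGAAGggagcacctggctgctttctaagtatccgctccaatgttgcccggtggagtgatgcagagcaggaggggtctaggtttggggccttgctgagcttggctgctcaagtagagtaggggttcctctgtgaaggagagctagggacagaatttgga
Timp3: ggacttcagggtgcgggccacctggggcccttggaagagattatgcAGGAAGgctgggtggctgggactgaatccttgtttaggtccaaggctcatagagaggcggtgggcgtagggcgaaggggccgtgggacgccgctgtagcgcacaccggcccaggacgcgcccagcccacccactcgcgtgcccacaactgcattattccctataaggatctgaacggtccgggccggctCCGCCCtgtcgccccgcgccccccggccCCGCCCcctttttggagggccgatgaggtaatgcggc
Htra1 held 1 GC box and no AGGAAG, Htra3 held 1 AGGAAG and no GC box, and Timp3 held 2 GC boxes and 1 AGGAAG. The windows were 65% G or C for Htra1, 53.7% for Htra3 and 67% for Timp3. Of 32851 RefSeq promoter windows of this length, 35.7% held GGGCGG and 35.4% held AGGAAG, so either match is common. The AP-1 letters TGANTCA (7.81% of windows) and the TATA box TATAAA (13.6%) matched in 0 of these 3 windows and in 0 of the windows of the 7 members found in the table, the other 4 being Mmp11, Mmp14, Timp1 and Timp2. No motif searched overlapped another in these windows. Whether these sequences bear on how the 3 genes varied over the libraries was not tested.

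The gelatinase and membrane-type protease genes did not pass either. Mmp2 (ENSMUSG00000031740, chromosome 8, 92827291 to 92853420), gelatinase A of stromal cells, measured 470.5, 249, 296 and 215 CPM in libraries labelled DT, against 152, 115, 271 and 258 CPM in libraries labelled PBS. The highest value was DT1 and the lowest were PBS1 and PBS2. Its log2 fold change was 0.63 ± 0.34 (edgeR adjusted p = 0.571), and -0.07 without these 3 libraries. Mmp14 (ENSMUSG00000000957, chromosome 14, 54431612 to 54445364), the membrane-bound enzyme that activates the Mmp2 precursor, measured 292, 269.7, 275 and 268 CPM in libraries labelled DT, against 242, 211, 269.3 and 241 CPM in libraries labelled PBS. Only PBS4 reached the DT-labelled range, and the log2 fold change was 0.20 ± 0.09 (edgeR adjusted p = 0.571), or 0.086 without DT1, PBS1 and PBS2. Mmp11 (ENSMUSG00000000901, chromosome 10, 75923222 to 75936496), stromelysin-3, which furin activates inside the cell, measured 18.5, 11.1, 13.5 and 9.82 CPM in libraries labelled DT, against 7.52, 10.3, 9.91 and 9.89 CPM in libraries labelled PBS. Its log2 fold change was 0.49 ± 0.20 (edgeR adjusted p = 0.564), 0.29 without DT1 and 0.21 without DT1, PBS1 and PBS2. Of its exon bases 5.58% overlap Chchd10 on the opposite strand.

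Mmp9 was the member whose call turned on 1 library. Mmp9 (ENSMUSG00000017737, chromosome 2, 164940780 to 164955850, plus strand), gelatinase B, is known from invading trophoblast giant cells and from neutrophils. It measured 16.2, 58.4, 48.6 and 51.9 CPM in DT1, DT3, DT4 and DT5, against 27.4, 31.7, 20.9 and 29.5 CPM in PBS1, PBS2, PBS4 and PBS6. DT3, DT4 and DT5 lay above every library labelled PBS and DT1 lay below all of them. With all 8 libraries Mmp9 averaged 43.8 ± 18.8 CPM under the DT label and 27.4 ± 4.65 CPM under the PBS label (SD, n = 4 each), and the log2 fold change was 0.68 ± 0.35 (edgeR adjusted p = 0.571). Without DT1 the log2 fold change was 0.96 ± 0.14 and passed (edgeR adjusted p = 0.0462). It also passed by limma voom (0.97 ± 0.14, adjusted p = 0.0426) and DESeq2 (0.94 ± 0.17, adjusted p = 7.16e-06), in fits chosen after seeing the data. These fits share the same libraries and leave out the value that ran the other way, so they are not independent support. Over all genes, without DT1 edgeR called 115 higher and 1 lower, limma voom 128 and 1, and DESeq2 313 and 68. Without DT1, PBS1 and PBS2 the log2 fold change of Mmp9 was 1.07 ± 0.17 and did not pass (edgeR adjusted p = 0.123). Over all alternatives tried its adjusted p ranged from 7.16e-06 to 0.999959.

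Marker lists are set beside Mmp9 here. DT1 was below the other libraries labelled DT in each of the 3 lists, as for Mmp9. In the neutrophil and trophoblast lists DT1 was also lowest of all 8 libraries, as for Mmp9, but PBS1 and PBS2 were highest, unlike for Mmp9. In the interferon-gamma response list DT1 lay above every library labelled PBS, which is also unlike Mmp9. The summed CPM of 13 interferon-gamma response genes was 480.1 in DT1 and 974 to 1132 in DT3, DT4 and DT5, against 244 to 320 in libraries labelled PBS. Of these 13 genes, 9 were higher in libraries labelled DT by edgeR and 0 lower. The summed CPM of 10 neutrophil markers was 15.9 in DT1 and 58.6 to 105 in the other libraries labelled DT, against 39.2 to 168 in libraries labelled PBS. S100a8 made up most of that sum where it was high, with 145 of 151 CPM in PBS1 and 159.5 of 168 CPM in PBS2. S100a9, Retnlg, Csf3r and Ngp lay higher in every library labelled DT than in any labelled PBS, S100a9 averaging 3.12 ± 0.813 CPM under the DT label and 0.941 ± 0.518 CPM under the PBS label (SD, n = 4 each; edgeR adjusted p = 0.254). Of the 10 markers 0 passed in either direction (8 were tested; at unadjusted p under 0.05, 4 were higher and 2 lower), and Elane, Ngp and Camp stayed below 1 CPM in every library. The summed CPM of 12 trophoblast markers was 22.8 to 114 in libraries labelled DT and 38.2 to 638 in libraries labelled PBS, with Gcm1 below 1 CPM throughout. The part of these cells or responses in the Mmp9 values was not tested. By likeness of log2 CPM over the 8 libraries (Pearson r, description only, among 11143 genes of at least 3 in mean log2 CPM), the genes nearest to Mmp9 were Ifi35 (r = 0.96), Xaf1 (r = 0.96) and ENSMUSG00000074873 (r = 0.96). Ifi35 and Xaf1 are known as interferon-inducible genes. Ifi35 measured 23.5, 40.8, 38.7 and 42.4 CPM in libraries labelled DT, against 28.0, 27.9, 24.4 and 26.7 CPM in libraries labelled PBS, so DT1 was lowest there too, with PBS4 close. ENSMUSG00000074873 was also lowest in DT1, at 7.73 CPM against 8.41 CPM in PBS4. Xaf1 was not, at 29.3 CPM in DT1 against 26.9 CPM in PBS4.

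**Figure D2:**
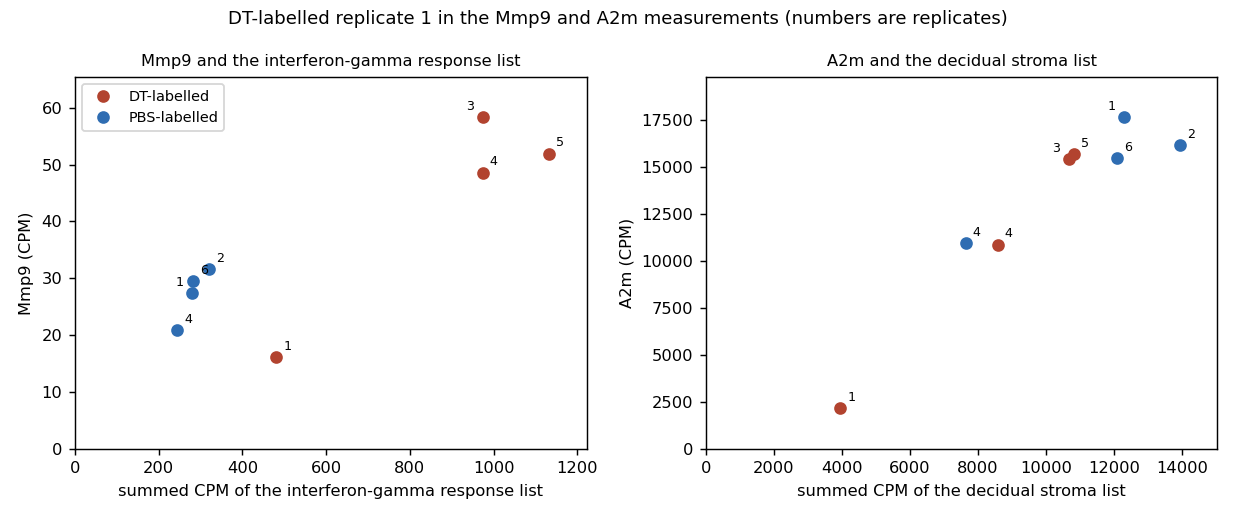
Left, Mmp9 (CPM) against the summed CPM of the 13-gene interferon-gamma response list; right, A2m (CPM) against the summed CPM of the 13-gene decidual stroma list; 1 point per library, labelled by replicate, DT-labelled in red and PBS-labelled in blue. DT1 is lowest for Mmp9 at 16.2 CPM and for A2m at 2172 CPM.

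Among the inhibitors, Timp1 and Timp2 had the smallest estimates. Timp1 (ENSMUSG00000001131, chromosome X, 20870166 to 20874735), an inhibitor that binds Mmp9, measured 19.7, 35.5, 30.9 and 36.4 CPM in libraries labelled DT, against 35.1, 34.2, 30.4 and 28.5 CPM in libraries labelled PBS. DT1 was the single low value, and the log2 fold change was -0.07 ± 0.18 (edgeR adjusted p = 0.881; 95% confidence interval -0.49 to 0.35). Timp2 (ENSMUSG00000017466, chromosome 11, 118301069 to 118355740), which both inhibits Mmp2 and joins it to Mmp14 for activation, measured 316, 269.4, 267 and 268 CPM in libraries labelled DT, against 281, 249, 299.9 and 312 CPM in libraries labelled PBS. Its log2 fold change was -0.03 ± 0.10 (edgeR adjusted p = 0.911; interval -0.25 to 0.20), the narrowest interval of the inhibitors. Without DT1, PBS1 and PBS2 it was -0.19 ± 0.07 (edgeR adjusted p = 0.591).

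Timp3 and A2m varied several-fold between libraries of 1 label. Timp3 (ENSMUSG00000020044, chromosome 10, 86300372 to 86349506, plus strand), an inhibitor that stays bound to the matrix, measured 763, 229, 558 and 189 CPM in libraries labelled DT, against 109, 103, 479 and 191 CPM in libraries labelled PBS. The high values were DT1 and DT4 and PBS4, and the log2 fold change was 0.98 ± 0.62 (edgeR adjusted p = 0.579), against -0.04 without DT1, PBS1 and PBS2. Timp3 lies inside Syn3, a synapsin gene on the opposite strand whose exons cover 21.3% of the exon bases of Timp3. Syn3 measured 287, 92.1, 211 and 79.0 CPM in libraries labelled DT, against 44.3, 44.1, 189.6 and 73.5 CPM in libraries labelled PBS, and was the gene most like Timp3 over the libraries (r = 0.999). The strand setting of the counts is not given in the sources used here, so reads of the 2 genes cannot be told apart over the shared bases. A2m (ENSMUSG00000030111, chromosome 6, 121635376 to 121679227) measured 2172, 15399, 10856 and 15674 CPM in libraries labelled DT, against 17643, 16166, 10950.4 and 15445 CPM in libraries labelled PBS. Apart from DT1 the libraries covered 10856 to 17643 CPM, and the log2 fold change was -0.45 ± 0.52 (edgeR adjusted p = 0.711), or -0.10 without that library. Prl8a2, the decidual prolactin gene that dominates the decidual stroma list, measured 687 CPM in DT1 and 3682 to 5666 CPM in DT3, DT4 and DT5, against 2893 to 8960 CPM in libraries labelled PBS. DT1 was the lowest library for each marker of that list except Hoxa10, Alpl and Dcn. Dcn was highest in DT1, at 747 CPM against 429 to 566 CPM in the other libraries. Alpl was higher in DT1 (86.5 CPM) than in any library labelled PBS (37.3 to 84.4 CPM). The part of decidual content in the A2m values was not tested.

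Ratios between proteases and inhibitors of the same library, formed from levels per kilobase, are given as descriptions. Mmp14 to Timp2 was 0.604, 0.654, 0.673 and 0.653 in libraries labelled DT, against 0.562, 0.555, 0.587 and 0.504 in libraries labelled PBS, and was the only 1 of 5 ratios whose groups did not overlap. Of all other genes tested, 4.37% had a ratio to Timp2 that was higher in every library labelled DT. Mmp9 to Timp1 was 0.205, 0.413, 0.394 and 0.358 in libraries labelled DT, against 0.196, 0.232, 0.172 and 0.259 in libraries labelled PBS. As for Mmp9 alone, DT3, DT4 and DT5 lay above the PBS-labelled range, but DT1 lay within it. Mmp2 to Timp2 averaged 1.25 ± 0.347 in libraries labelled DT and 0.790 ± 0.249 in libraries labelled PBS (SD, n = 4 each). Mmp2 to Mmp14 averaged 1.95 ± 0.631 under the DT label and 1.44 ± 0.47 under the PBS label. Htra1 to Htra3 was 1.54 to 2.01 in DT3, DT4 and DT5 and 0.575 in DT1, against 1.36 to 1.76 in libraries labelled PBS.

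**Figure D3:**
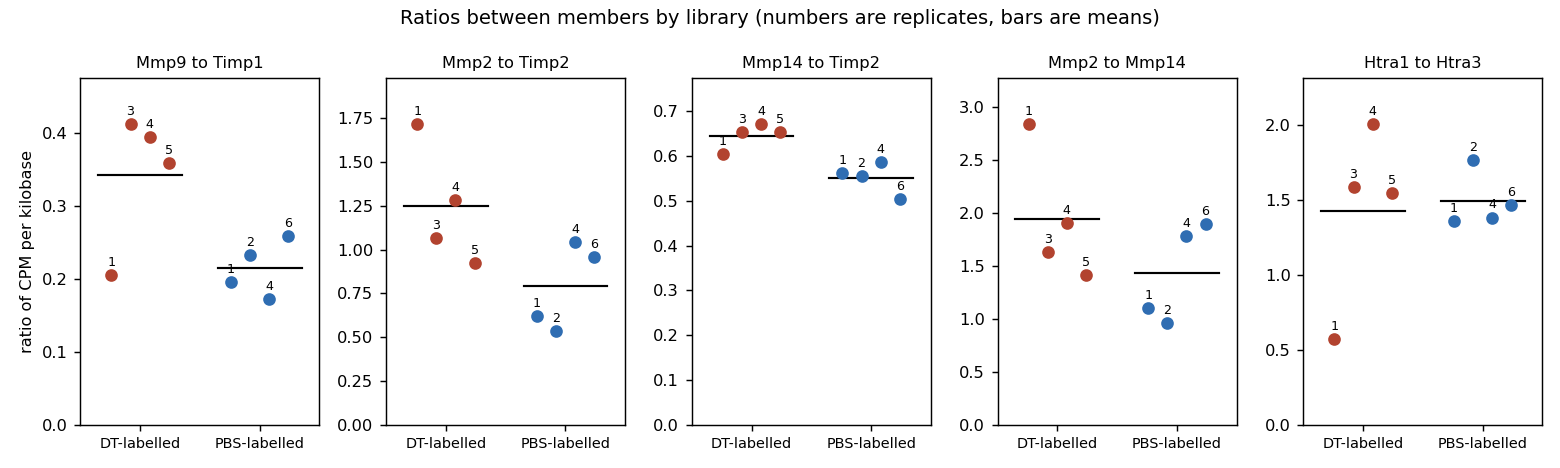
Ratios of CPM per kilobase between members, 1 point per library labelled by replicate and a bar at the group mean, DT-labelled left and PBS-labelled right (n = 4 each), with each axis starting at 0. Mmp14 to Timp2 is the panel without overlap; in the Mmp9 to Timp1 panel DT3, DT4 and DT5 lie at 0.358 to 0.413, above the PBS-labelled maximum of 0.259.

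Members differed in how much they varied between libraries, whatever the label. The highest library exceeded the lowest 34.9-fold for Htra1, 12.4-fold for Htra3, 8.12-fold for A2m, 7.40-fold for Timp3, 4.09-fold for Mmp2 and 3.61-fold for Mmp9. Among 11153 genes of at least 3 in mean log2 CPM, Htra1 lay at percentile 99.8 of this quantity and Htra3 at percentile 99.3. Timp2 (1.27-fold, percentile 35.6) and Mmp14 (1.38-fold, percentile 52.1) varied about as much as most genes. Htra1 and Htra3 were alike over the 8 libraries (r = 0.95), as were Mmp2 and Timp3 (r = 0.91) and Timp1 and A2m (r = 0.93). Htra1 ran opposite to Timp3 and to Mmp2 (r = -0.96 for both). These values describe 8 libraries whose conceptus scores have PBS1 and PBS2 at 1 end and DT1 at the other. The extreme libraries of single members could differ, Htra3 being lowest in PBS4 and Mmp9 highest in DT3.

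The conceptus score was then tested as a continuous term in 1 fit with treatment over all genes. Of the 10 members, Htra1 and Htra3 rose with the score and Mmp2 and Timp3 fell, while 20% of all 22693 genes were called (9.64% rising and 10.4% falling; edgeR adjusted p under 0.05). Per unit of score, 1 unit being 1 SD of marker expression, Htra1 changed by 1.75 ± 0.26 on the log2 scale (SE; edgeR adjusted p = 0.00597) and Htra3 by 1.46 ± 0.24 (edgeR adjusted p = 0.00757). Mmp2 changed by -0.65 ± 0.10 (edgeR adjusted p = 0.00569) and Timp3 by -1.06 ± 0.23 (edgeR adjusted p = 0.0197). Mmp14 had -0.12 ± 0.04 and Timp2 -0.14 ± 0.05, both with an edgeR adjusted p of 0.0748. Mmp9, Timp1 and A2m had 0.37 ± 0.24, 0.21 ± 0.11 and 0.51 ± 0.37, and Mmp11 had -0.16 ± 0.13, and none of these passed. Leaving out DT1 or PBS2 moved these last 4 by over 1.5 times: without DT1 they were 0.19, 0.12 and 0.25 for Mmp9, Timp1 and A2m and -0.061 for Mmp11, and without PBS2 0.60, 0.35, 0.98 and -0.44 in that order of genes. Without PBS4 Timp1 was 0.33.

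The same fit gave treatment estimates with the score held fixed, and 0 of 10 members passed. Every library labelled DT scored below 0 and only PBS1 and PBS2 scored above it, so score and treatment are partly confounded. Whether treatment changed the score itself was not tested, so these estimates may leave out part of a treatment difference. The log2 fold change, DT minus PBS, was -0.29 ± 0.36 (SE) for Htra1 and -0.36 ± 0.35 for Htra3, against -2.05 and -1.97 without the score. Mmp2 had 0.13 ± 0.16, Timp3 0.22 ± 0.40, Mmp14 0.10 ± 0.07 and Mmp11 0.35 ± 0.23. Mmp9 had 0.94 ± 0.35 (edgeR adjusted p = 0.791), against 0.68 without the score. A2m had -0.13 ± 0.51, Timp1 0.095 ± 0.17 and Timp2 -0.14 ± 0.08, and the edgeR adjusted p was 0.9998 for the 9 members other than Mmp9.

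**Figure D4:**
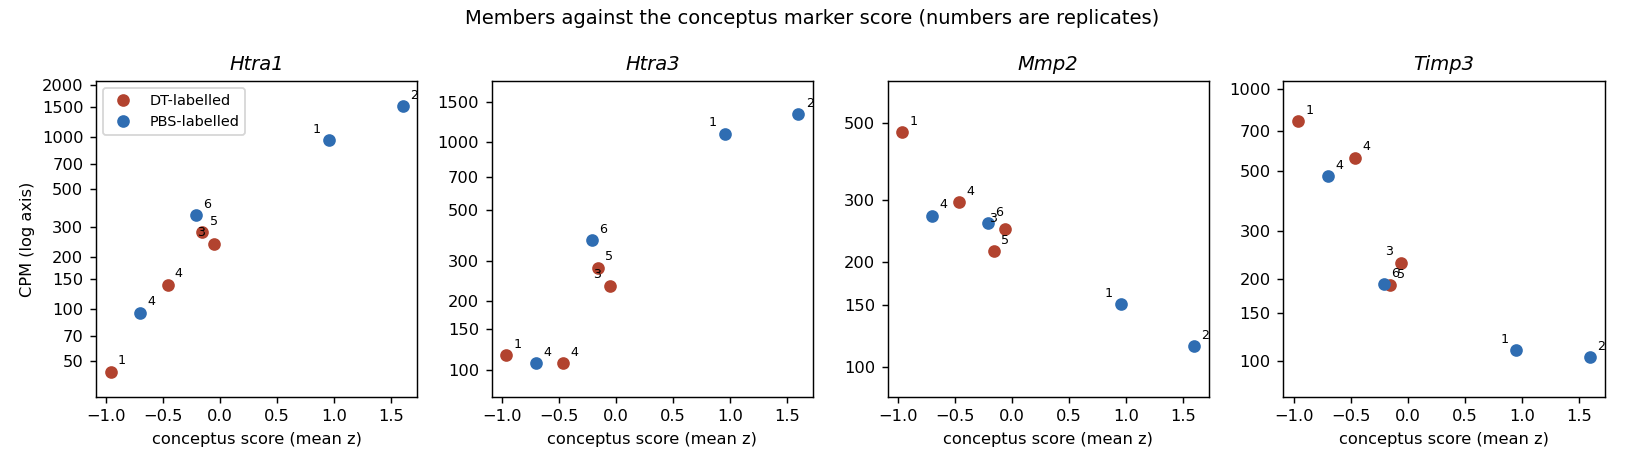
CPM (log axes) of the 4 members called in the fit on the conceptus score, against that score (mean standardised log2 CPM of 21 markers), 1 point per library labelled by replicate, DT-labelled in red and PBS-labelled in blue. Htra1 and Htra3 are highest and Mmp2 and Timp3 lowest in PBS1 and PBS2, which have the highest scores, and the groups interleave along the score below 0.

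Mmp2 kept its call in each of 12 alternative fits on the score (largest edgeR adjusted p = 0.0283), and the others missed the threshold without some single libraries while their slopes kept their direction. Without PBS4 the slope was 1.52 for Htra1 (edgeR adjusted p = 0.0601), 1.14 for Htra3 (adjusted p = 0.0555) and -0.88 for Timp3 (adjusted p = 0.17), and without PBS1 it was -1.03 for Timp3 (adjusted p = 0.0605). Without PBS1 and PBS2, the libraries farthest from the median score, Htra1, Mmp2 and Timp3 still passed, with slopes of 3.15, -0.97 and -2.31, and Htra3, with a slope of 1.76, did not (edgeR adjusted p = 0.0817). In that fit Mmp9 (1.78 per unit, adjusted p = 0.0171), A2m (2.71, adjusted p = 0.0225) and Mmp11 (-0.77, adjusted p = 0.0285) passed as well. Over all genes 3301 rose and 2721 fell in it. DT1, the library of lowest score, had the lowest Mmp9 and A2m and the highest Mmp11, and its part in these calls was not tested. Other marker lists moved with the score. Of 11 uterine NK cell markers 8 rose and 0 fell with it, their summed CPM being 259 to 662 in libraries labelled DT and 394 to 1643 in libraries labelled PBS. Of 10 smooth muscle markers 0 rose and 7 fell, with summed CPM of 4224 to 5435 under the DT label and 4127 to 5417 under the PBS label. Of 13 decidual stroma markers 0 rose and 1 fell. Among 10 endothelium markers 6 rose and 1 fell, and among 10 uterine epithelium markers tested 3 rose and 0 fell. These counts are from the fit on all 8 libraries, where 9.64% of all genes rose and 10.4% fell. In these lists only Spink12, of uterine epithelium, stayed below 1 CPM, and the part of the lists in the slopes of the members was not tested. One marker inside the score, Spink1, fell with it, at 30.1 to 124 CPM in libraries labelled DT and 2.62 to 47.3 CPM in libraries labelled PBS.

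**Figure D5:**
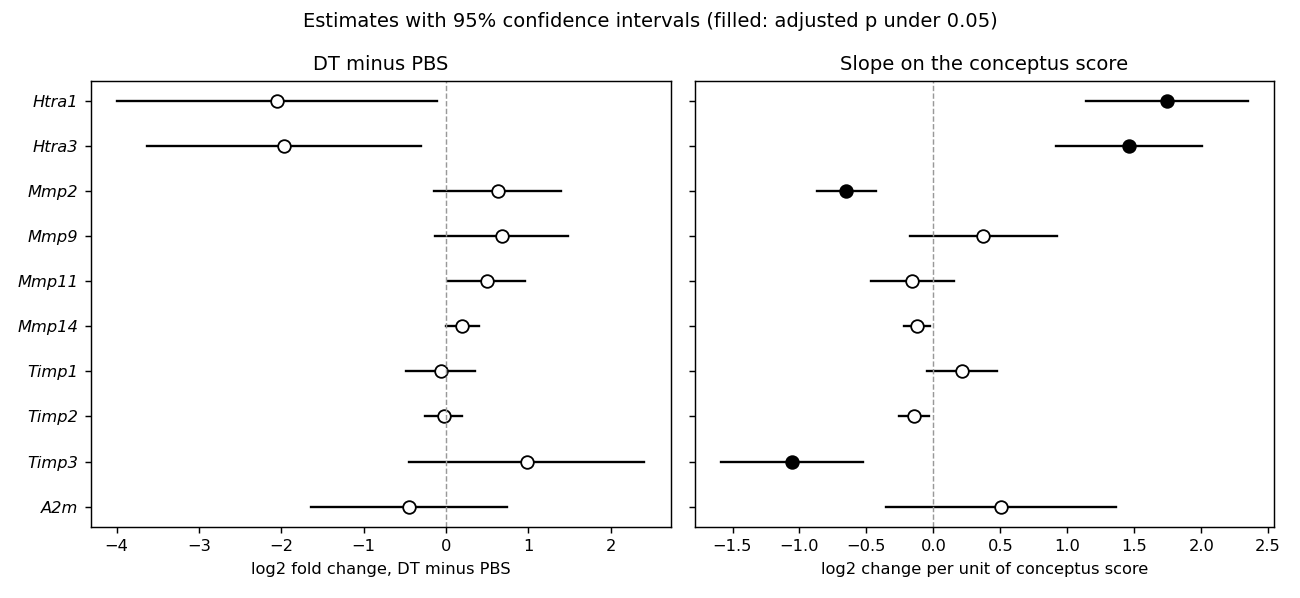
Estimates for the 10 members with 95% confidence intervals on the log2 scale, left the DT minus PBS fold change and right the change per unit of conceptus score; filled points have an edgeR adjusted p under 0.05. On the left 0 of 10 are filled, and on the right Htra1, Htra3, Mmp2 and Timp3 are.

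Over 81 other genes of the protease system in 7 lists, 77 were tested and 0 passed between the treatment groups by edgeR, with 10 higher and 4 lower at unadjusted p under 0.05 (4.72% and 3.98% of all genes), 2 higher by DESeq2 (Mmp25 and Adamts16) and 0 by limma voom. Their median log2 fold change was 0.18, against 0.01 over all genes. The groups did not overlap for 6 genes with libraries labelled DT above and 1 with them below, against 3.33% and 1.73% of all genes. With the conceptus score 14 rose and 20 fell, against 9.64% rising and 10.4% falling over all genes. The genes named here are the 3 of each list with the smallest unadjusted p.

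Among 17 other metalloprotease genes tested (median log2 fold change 0.28), Mmp25, a membrane-anchored enzyme of leukocytes, measured 1.04 ± 0.231 CPM in libraries labelled DT and 0.445 ± 0.179 CPM in libraries labelled PBS (SD, n = 4 each; log2 fold change 1.22 ± 0.32, edgeR adjusted p = 0.346). Mmp7, matrilysin of epithelia, measured 24.6 ± 4.62 CPM under the DT label and 14.4 ± 4.02 CPM under the PBS label (0.77 ± 0.22, edgeR adjusted p = 0.418). Mmp7 fell with the conceptus score (-0.36 per unit, edgeR adjusted p = 0.0476). Mmp8, the neutrophil collagenase, measured 0.329 ± 0.0475 CPM under the DT label and 0.173 ± 0.106 CPM under the PBS label. Mmp10, Mmp12, Mmp20 and Mmp21 were also below 1 CPM in every library. In the HtrA family, Htra2, a mitochondrial protease, had a log2 fold change of 0.01 ± 0.07 and Htra4, below 1 CPM throughout, one of 0.52 ± 0.29. Among 19 ADAMTS genes, which encode secreted metalloproteases, Adamts16 measured 15.7 ± 2.17 CPM under the DT label and 9.67 ± 2.47 CPM under the PBS label (0.70 ± 0.18, edgeR adjusted p = 0.36). Adamts6 and Adamts7 had log2 fold changes of 0.34 ± 0.10 and 0.50 ± 0.16, with no overlap between groups.

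In the plasminogen activator system, whose product plasmin activates several metalloprotease precursors, Plgrkt, a plasminogen receptor, measured 22.6 ± 1.09 CPM in libraries labelled DT and 18.8 ± 1.117 CPM in libraries labelled PBS (0.26 ± 0.07, edgeR adjusted p = 0.329). Serpine2, protease nexin-1, had a log2 fold change of 0.31 ± 0.08 and Plat, tissue plasminogen activator, one of 0.55 ± 0.19. Plat fell with the conceptus score (-0.33 per unit, edgeR adjusted p = 0.019). Of the other inhibitors, Cd109, a membrane-anchored relative of A2m, had -0.42 ± 0.15 (edgeR adjusted p = 0.54), Tfpi2, a Kunitz-type serine protease inhibitor, had -1.14 ± 0.46, and Spock3 had 1.301 ± 0.57 from under 1 CPM. Tfpi2 rose with the conceptus score (0.91 per unit, edgeR adjusted p = 0.00446). Among activators and partners, the integrin genes Itgav and Itgb3 had log2 fold changes of -0.44 ± 0.18 and -1.002 ± 0.44, and Bsg, the cell-surface inducer of metalloproteases, -0.26 ± 0.16. All 3 rose with the score, Itgb3 by 0.90 per unit (edgeR adjusted p = 0.00426). Among 13 matrix substrates, Lamc1, a laminin chain of basement membranes, measured 2047 ± 377 CPM in libraries labelled DT and 2583 ± 159 CPM in libraries labelled PBS (-0.34 ± 0.15, edgeR adjusted p = 0.571). Lama1, another laminin chain, had a log2 fold change of 0.44 ± 0.20 and Col4a1, a type IV collagen chain cut by gelatinases, one of -0.21 ± 0.11.

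The genes most like the other members over the 8 libraries were Ero1l, Gm20536 and Gramd1b for Htra1 (r = 0.998 to 0.999) and Mgat5, Golga3 and Trip12 for Htra3 (r = 0.996 to 0.997). For Mmp2 they were Tril, B130024G19Rik and Cyp2d22 (r = 0.995 to 0.996), for Mmp14 Cd248, Ndp and Vps72 (r = 0.984 to 0.992), and for Mmp11 C3, Nuak1 and Zfas1 (r = 0.975 to 0.987). For A2m they were Gm16033, Rrm2 and Havcr2 (r = 0.996 to 0.998), for Timp1 2200002D01Rik, Mrpl54 and Rex1bd (r = 0.984 to 0.987), and for Timp2 Sh3rf1, Extl2 and Fkbp9 (r = 0.947 to 0.969). After Syn3, those nearest to Timp3 were Hip1 and Cdc14b (r = 0.993 and 0.992). Gramd1b, for example, measured 49.4, 140.0, 90.9 and 145 CPM in libraries labelled DT, against 320, 389, 83.4 and 171 CPM in libraries labelled PBS, with PBS1 and PBS2 highest as for Htra1. With 11143 genes searched over 8 libraries, these values of r carry no test.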

How the data were processed

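Expression was measured in 8 libraries, 4 labelled DT and 4 labelled PBS. Per the labels' protocols, RNA (integrity numbers 8 to 10) was isolated with Trizol from tissue in RNAlater, prepared with the Kapa mRNA hyperprep kit (an Illumina TotalPrep amplification kit is named too) and read from both ends, about 75 bases each, on a NextSeq machine. The values the authors deposited are unnormalized whole counts of reads for each gene ID. The submitters' processing notes list, without roles, DESeq2, SAMtools, featureCounts, HISAT2, Trimmomatic and the GRCm38 build. Their versions, the annotation, the strand setting and the handling of multi-mapped reads were not given in the sources used here. The series table and per-library tables differed in 0 cells, and all 28 pairs of libraries differed beyond sampling noise (lowest chi-square over its degrees of freedom, 29.3), so each library counted once.

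Of 49585 genes, 49326 matched GENCODE M21 (GRCm38), which gave symbols, coordinates and merged exon lengths. The count test was edgeR 4.0.16 (R 4.3.3). It used filterByExpr (minimum count 10, minimum total 15), TMM scaling and the robust quasi-likelihood test, two-sided, with Benjamini-Hochberg adjustment over all genes and a threshold of 0.05. CPM uses TMM-scaled library sizes; likeness uses log2 CPM with a prior count of 2. DESeq2 1.42.0, limma 3.58.1 (voom) and the settings listed under the dependence on processing were alternatives. The code was tested on simulated data. Intervals cover the spread between these 8 libraries. Members, marker lists and gene lists were chosen with earlier results of these data known. All 10 members are named in every case, with Foxp3, the 3 genes per list of smallest unadjusted p and the 3 genes most like each member. Prl8a2, Spink1, other single decidual stroma markers, single neutrophil markers and the genes given under other observations were named after their values were seen.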

Additional observations from a re-analysis of the deposited data

Results flagged for a closer look

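Of 30 groups of 4 libraries examined, the 10 members and 5 ratios in each treatment group, 2 held a library far from the other 3 by Dixon's test, and chance flags about 1 group in 20. Timp2 in DT1 was high at 316 CPM, against 267 to 269.4 CPM in the other libraries labelled DT. Mmp11 in PBS1 was low at 7.52 CPM, against 9.89 to 10.3 CPM in the other libraries labelled PBS.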

How the results depend on the processing

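Between the treatment groups edgeR called 73 genes higher and 1 lower. DESeq2 called 267 and 71, DESeq2 without DT1 called 313 and 68, and limma voom without it 128 and 1 (the last pair of fits was chosen after seeing the data); both fits called 1 member, Mmp9. Scaling by library size only, under which the median log2 fold change over all tested genes became 0.12, called 2 lower. Without PBS1 and PBS2 edgeR called 0 higher. Leaving out 1 library at a time gave 0 to 115 higher, 0 to 5 lower and 0 to 1 member higher: 115 and 1 without DT1, 43 and 5 without PBS4, and 0 in both directions without any other single library (DT3, DT4, DT5, PBS1, PBS2 or PBS6). Replicate numbers 1 and 4 occur in both groups. With the number as a replicate block, where only these numbers inform the treatment estimate, 0 genes were called higher and 0 lower. The deviations of same-numbered libraries correlated at -0.64 and 0.35, while DT5 and PBS1, of different number, correlated at 0.72. These values cannot decide whether libraries of the same number were handled together.

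Some member estimates, none of them called, changed sign. Timp1 was 0.0312 with library size only, 0.0952 with the conceptus score as a term, 0.0507 without PBS1 and PBS2, 0.217 without DT1, PBS1 and PBS2, and without DT1 0.0889 by DESeq2 and 0.102 by limma voom. Leaving out 1 library at a time, it ranged over -0.16 to 0.098. Timp2 was 0.0869 with library size only, 0.000575 with the replicate block and -0.0887 to 0.0191 leaving out 1 library at a time. Without DT1, PBS1 and PBS2, Mmp2 was -0.0665, Timp3 -0.0396 and A2m 0.0825. The cause was not tested.

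For the conceptus score, 2187 genes rose and 2353 fell. Without the 2 farthest libraries 3301 rose, without a treatment term 3655 rose and 3813 fell, and with the yolk sac and embryo list only 1360 fell. Leaving out 1 library at a time gave 418 to 2786 rising, 259 to 2548 falling, 0 to 2 members rising and 1 to 2 falling, the lowest without PBS4.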

Other observations

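Embryonic globin genes, named after their values were seen, exceeded 1 CPM in PBS1 and PBS2 only. Hba-x measured 0 to 0.0291 CPM in libraries labelled DT, against 18.3 and 120.0 CPM in PBS1 and PBS2 and 0.00945 and 0.0189 CPM in PBS4 and PBS6. Hbb-bh1 measured 0 to 0.466 CPM in libraries labelled DT, against 20.8, 114, 0 and 0.18 CPM in PBS1, PBS2, PBS4 and PBS6. The libraries with these globins are those with the highest Htra1 and Htra3 and the lowest Mmp2 and Timp3, and both carry the title suffix S1.

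Ly6g, a neutrophil marker, measured 0.0816 to 0.107 CPM in libraries labelled DT, against 0.0218, 0.0206, 4.81 and 3.95 CPM in PBS1, PBS2, PBS4 and PBS6. The libraries with more Ly6g both carry the title suffix S2. Ly6g was chosen after its values were seen, and other markers of the same list ran the other way, S100a9, Retnlg, Csf3r and Ngp being higher in every library labelled DT than in any labelled PBS.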
